A study of Mus musculus with 18 samples.

Results

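The interferon response genes followed here are a list of 36 genes that cells switch on, or hold ready, when they sense interferon or viral nucleic acid. Each gene was represented by its brightest probe set that carries a single gene symbol, chosen by the mean over 18 microarrays. Of the 36 genes, 35 had such a probe set, out of 22180 genes measured in this way. The exception was Dtx3l, the ubiquitin ligase partner of PARP9, which shares its only probe set with Parp9 and was not followed as a gene of its own. The arrays come from a mouse model of anaplastic large cell lymphoma, a T cell lymphoma driven by the fusion kinase NPM-ALK. Recipient mice that carry an Lck-Cre transgene were given sublethal irradiation and bone marrow infected with a retrovirus. In this model NPM-ALK is switched on in early T cells, where the Lck promoter is active. Thymic lymphoma was taken from mice once they were moribund, 3 lymphomas in all, and cells stained for CD4, CD8, CD25, CD44, IL7Rα, cKIT, SCA1 and lineage markers were sorted into 5 fractions, CLP, DN1, DN2, DN3 and DN4, with 3 arrays each. The comparison group was 3 arrays of LSK cells, a bone marrow population rich in stem and progenitor cells, from healthy wildtype mice 18 months old. LSK cells therefore differ from the lymphoma fractions in tissue, age, genotype, irradiation and lineage together, and these cannot be told apart. The fractions bear the names of normal stages of lymphocyte development but were all sorted from lymphoma.

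Interferons are secreted proteins that bind receptors on the cell surface and, through JAK kinases, activate STAT transcription factors. STAT2 and IRF9 are parts of the complex ISGF3, which binds interferon-stimulated response elements (ISRE), while interferon gamma acts through gamma-activated sites (GAS). The target genes encode sensors of foreign or displaced RNA and DNA, enzymes and membrane proteins that block viral replication, and proteins such as USP18 that shut the signal off, and stem cells keep some of them on without infection.

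Values are log2 signals. Detection was judged against 1105 olfactory receptor genes, which blood cells are not known to use: their 95th percentile lay between 5.36 and 5.71 on the 18 arrays and is called background below. Of the 35 genes, 29 were above it on all 18 arrays. The markers set lymphoma apart from LSK: 6 of 6 T lineage genes were above background in each fraction, with summed signals of 65.2 to 69.4 against 35.8 to 36.3 in LSK, while the stem cell list summed to 48.3 to 48.8 in LSK and 27.6 to 31.2 in the fractions. Of the stem cell list, Kit alone was above background in the fractions. They did not bear out the name of the CLP fraction, where Cd3d, a chain of the T cell receptor complex, was at 12.42 (12.48 in DN4) and Flt3, a receptor of early lymphoid progenitors, was at background (4.68). The free-text descriptions of the samples go against the other labels: they speak of aged NIPA KO or wild type mice, and on 12 arrays, among them LSK replicate 3 and 11 lymphoma arrays, of a dose of 4 Gy. The groups here follow the titles, source, age and genotype. The LSK arrays also differed among themselves in Xist, a transcript made from the silenced X, at 3.55, 10.74 and 10.00, against 3.81 to 5.03 on the lymphoma arrays. Eif2s3y, a Y-linked gene, read 8.42, 7.43 and 4.69 in LSK and 8.62 to 9.44 in the lymphoma, so LSK replicate 2 was high for both, and the labels give no sex. The labels do not say that equal replicate numbers are the same animal, so the p-values measure the spread between these arrays.

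The sequences around the starts of 5 genes are shown because these genes carry the patterns described below and because ISRE and GAS are the sites through which interferon is known to act. All are RefSeq promoter windows on mouse GRCm38.p6, from 250 bases before the transcription start to 50 bases after it, written on the gene's strand. Capitals mark matches to an ISRE-type motif, GAAA and GAAA parted by any 2 bases, or a GAS-type motif, TTCNNNGAA, on either strand.
Ifitm3 (chr7:141010695-141010994, minus strand): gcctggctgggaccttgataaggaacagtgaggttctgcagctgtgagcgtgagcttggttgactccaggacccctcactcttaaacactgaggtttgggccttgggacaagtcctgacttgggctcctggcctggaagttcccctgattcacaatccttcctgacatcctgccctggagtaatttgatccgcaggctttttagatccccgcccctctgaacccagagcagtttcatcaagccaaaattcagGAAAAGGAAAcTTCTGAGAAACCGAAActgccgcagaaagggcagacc
Isg15 (chr4:156200769-156201068, minus strand): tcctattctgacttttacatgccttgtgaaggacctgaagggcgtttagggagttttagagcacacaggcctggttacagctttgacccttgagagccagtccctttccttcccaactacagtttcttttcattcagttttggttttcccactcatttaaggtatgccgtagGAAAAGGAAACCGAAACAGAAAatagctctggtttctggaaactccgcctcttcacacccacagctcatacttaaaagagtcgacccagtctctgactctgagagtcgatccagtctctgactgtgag
Ifit1 (chr19:34640639-34640938, plus strand): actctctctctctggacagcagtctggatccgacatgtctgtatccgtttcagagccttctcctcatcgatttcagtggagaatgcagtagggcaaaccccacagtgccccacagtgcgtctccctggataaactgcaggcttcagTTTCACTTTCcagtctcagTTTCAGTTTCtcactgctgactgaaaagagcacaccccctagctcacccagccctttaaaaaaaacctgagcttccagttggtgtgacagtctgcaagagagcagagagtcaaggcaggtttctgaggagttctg
Rsad2 (chr12:26456403-26456702, minus strand): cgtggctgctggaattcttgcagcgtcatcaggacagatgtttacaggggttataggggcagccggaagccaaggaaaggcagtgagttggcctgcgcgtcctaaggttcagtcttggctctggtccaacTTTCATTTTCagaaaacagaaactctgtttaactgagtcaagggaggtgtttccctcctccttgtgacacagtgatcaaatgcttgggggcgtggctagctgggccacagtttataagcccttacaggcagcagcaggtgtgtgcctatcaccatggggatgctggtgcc
Samhd1 (chr2:157135047-157135346, minus strand): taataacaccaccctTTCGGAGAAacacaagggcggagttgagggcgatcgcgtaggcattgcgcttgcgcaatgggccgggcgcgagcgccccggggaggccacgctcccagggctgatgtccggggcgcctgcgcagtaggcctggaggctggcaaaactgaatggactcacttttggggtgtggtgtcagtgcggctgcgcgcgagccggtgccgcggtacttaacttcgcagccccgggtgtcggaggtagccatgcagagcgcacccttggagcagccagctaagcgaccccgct
The Ifitm3 window held 2 ISRE-type matches just after the start, and a GAS-type match between them that overlaps the later one. Isg15 held 3 ISRE-type matches that overlap in 1 run, at 78 to 57 bases before the start. Ifit1 held 2, read on the opposite strand, and Rsad2 held 1, while Samhd1 held a single GAS-type match far upstream. Among the 27 listed genes with a window in the table, 11 (40.7%) held an ISRE-type match and 9 (33.3%) a GAS-type match. The same motifs were found in 3.99% and 9.55% of the windows of all 27025 genes in the table. No window was used for Dhx58, Zbp1, Ifi204, Oas2, Usp18, Parp9, Parp14 and Rtp4. These are letter matches, not measured binding.

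**Figure D1:**
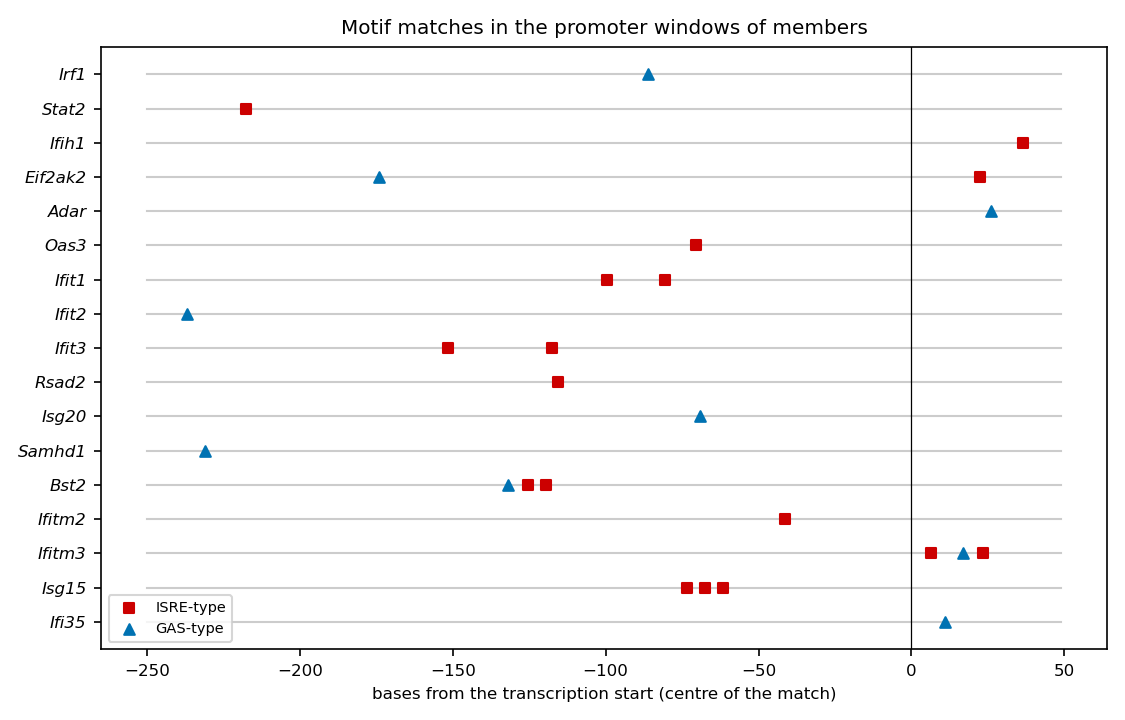
Positions of ISRE-type (squares) and GAS-type (triangles) matches in the promoter windows of the listed genes that hold at least 1 match, in bases from the transcription start (horizontal axis). The matches of Ifitm3 lie just after the start, and the 3 of Isg15 form 1 run before it.

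Against LSK cells, the interferon response genes moved in both directions in the lymphoma: 8 of the 35 were higher and 14 lower. This count comes from limma with Benjamini-Hochberg adjustment over all genes, at an adjusted p under 0.05, with the 5 fractions averaged per replicate number. Over all 22180 genes the percentage called was 29, with 13.1% higher and 15.8% lower. Among the 12548 genes above the array median on at least 3 arrays, a class that holds all 35 listed genes, the percentage called was 44.2, against 62.9 for the list. These are called the brighter genes below. Their percentages come from a fit of those genes alone, with its own adjustment, whereas those of the list were adjusted over all genes. The median difference of the list was -0.21, against 0.05 for all genes. Complete separation, with the 15 lymphoma arrays all above or all below the 3 LSK arrays, was seen for 12 of the 35 genes, against 16.7% of all genes. Irf1, Zbp1, Ifi204, Usp18 and Lgals3bp lay above (6.28% of all genes did so), and Irf9, Stat2, Ifih1, Oasl1, Rsad2, Cmpk2 and Samhd1 below (10.4% of all genes). These are bulk samples, so fewer cells with the RNA and less RNA per cell cannot be told apart.

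Each fraction set against LSK alone also gave calls in both directions. In the CLP fraction 15 genes were called, 6 higher and 9 lower, against 17.7% of all genes, 6.54% higher and 11.2% lower. This count depended on the LSK arrays: it was 7 without LSK replicate 1, 9 without LSK replicate 2 and 8 without LSK replicate 3. In DN1 22 genes were called, 9 higher and 13 lower, against 19.7% of all genes, 7.45% higher and 12.3% lower. DN2 had 23, 10 higher and 13 lower, against 25.4%, of which 11.4% higher and 14% lower. For DN3 the count was 21, 7 higher and 14 lower, against 24.5% (11.4% higher, 13.1% lower). DN4 had 23, 6 higher and 17 lower, against 26.6% (11.8% higher, 14.9% lower). All 5 comparisons use the same LSK arrays, so calls shared by the fractions are not independent. The shares of all genes called in every fraction, in none or in both directions were not counted. The counts that follow therefore do not set the list apart from other genes. Higher in each fraction were 5 genes (Irf1, Zbp1, Ifi204, Usp18 and Lgals3bp) and lower in each 8 (Irf9, Stat2, Ifih1, Oasl1, Ifit1, Rsad2, Cmpk2 and Samhd1). Of these, Zbp1, Ifi204, Usp18, Irf9, Oasl1, Rsad2 and Samhd1 kept each of these calls under every alternative run. With the replicate block, the CLP calls of Irf1 and Lgals3bp were lost (adjusted p 0.0703 for both). The CLP calls of Irf1 and Lgals3bp were also lost without any one LSK array, as was that of Cmpk2 (adjusted p 0.0542 to 0.127). Without LSK replicate 1, Stat2 (0.174), Ifih1 (0.0726) and Ifit1 (0.136) lost theirs too. Calls in DN1 or DN3 were lost for Irf1 and Stat2 when single arrays were left out, such as LSK replicate 3 for Irf1 in DN3 (0.0799) and LSK replicate 1 for Stat2 in DN1 (0.0823). Ifitm3 and Parp14 were called in opposite directions in different fractions, and 7 genes were called in none.

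**Figure D2:**
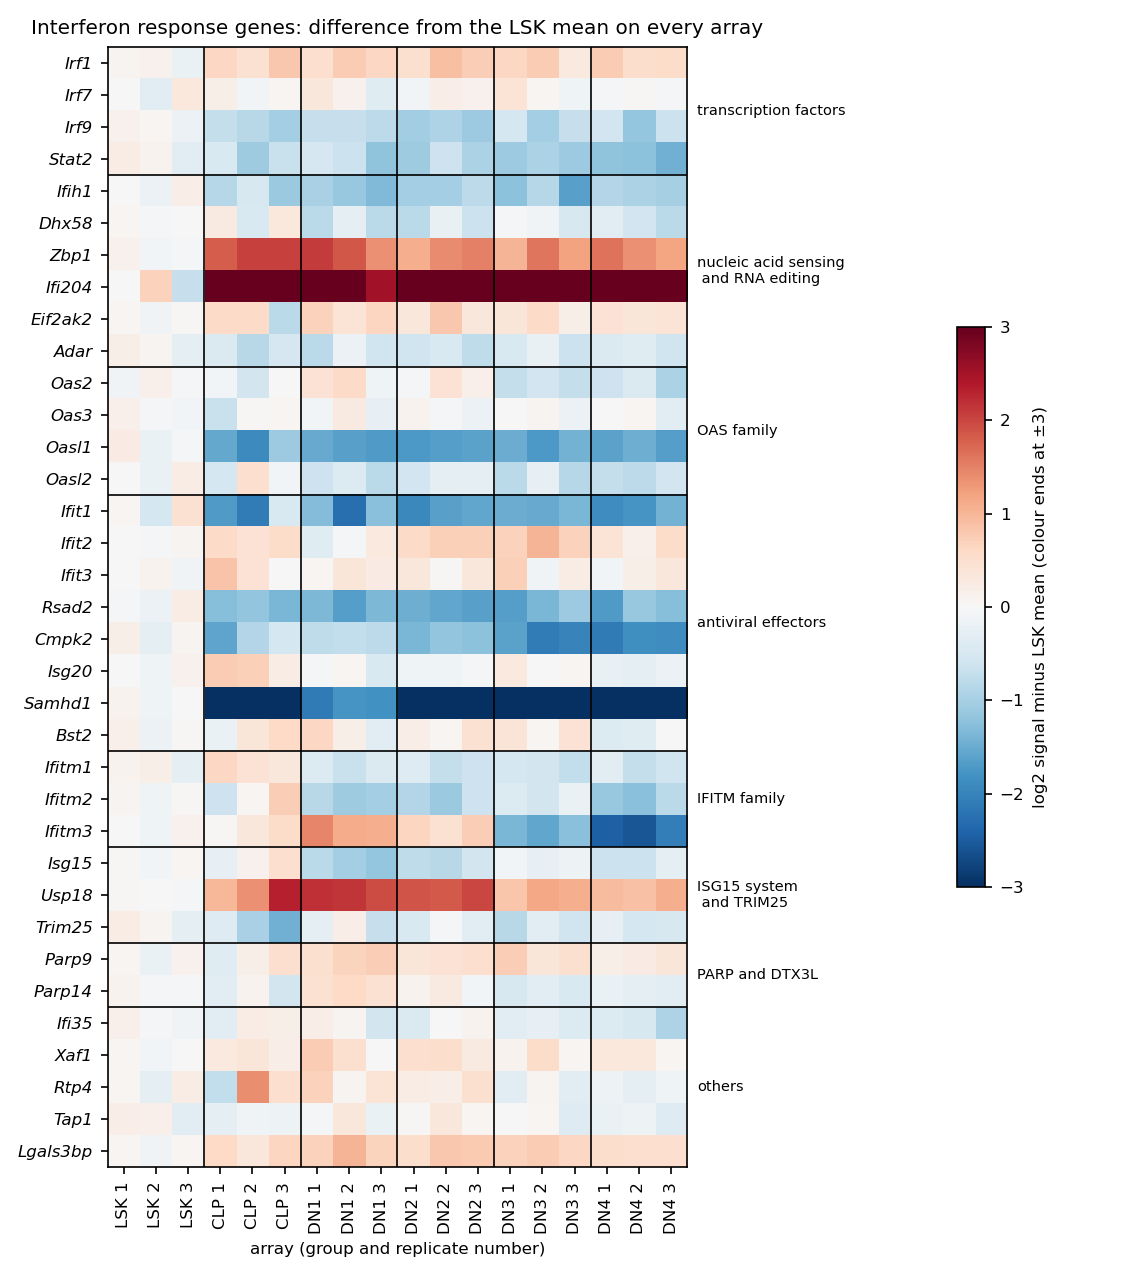
Difference of each array from the LSK mean (log2, colour, ending at 3 in either direction) for the 35 interferon response genes (rows, grouped by role) on the 18 arrays (columns, by group and replicate). Ifi204 is high and Samhd1 low across the lymphoma arrays, and Ifitm3 changes from high in DN1 to low in DN4.

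Within the lymphoma, 12 of the 35 genes differed among the 5 fractions by limma's F test over 15 arrays, against 7.88% of all genes and 14.3% of the brighter genes. The median span between the highest and the lowest fraction mean was 0.59, against 0.32 for all genes. Of these 12 genes, 7 also differed from LSK (Ifi204, Samhd1, Cmpk2, Isg15, Usp18, Ifitm2 and Ifit2) and 5 did not (Ifitm3, Ifitm1, Oas2, Parp14 and Isg20). DN1 was the highest fraction for 6 of them and CLP for 5, and DN4 was the lowest for 6. Some of these ranks were near ties. DN4 was at 6.60 for Cmpk2 (6.64 in DN3), 7.64 for Usp18 (7.71 in DN3) and 10.05 for Ifitm2 (10.15 in DN1). Oas2 was at 5.67 in both DN3 and DN4. The matching ranks over all genes were not counted, so this does not set the list apart. Another 15 genes differed from LSK without passing the F test, and 8 passed neither: Irf7, Oas3, Ifit3, Bst2, Ifi35, Xaf1, Rtp4 and Tap1.

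**Figure D3:**
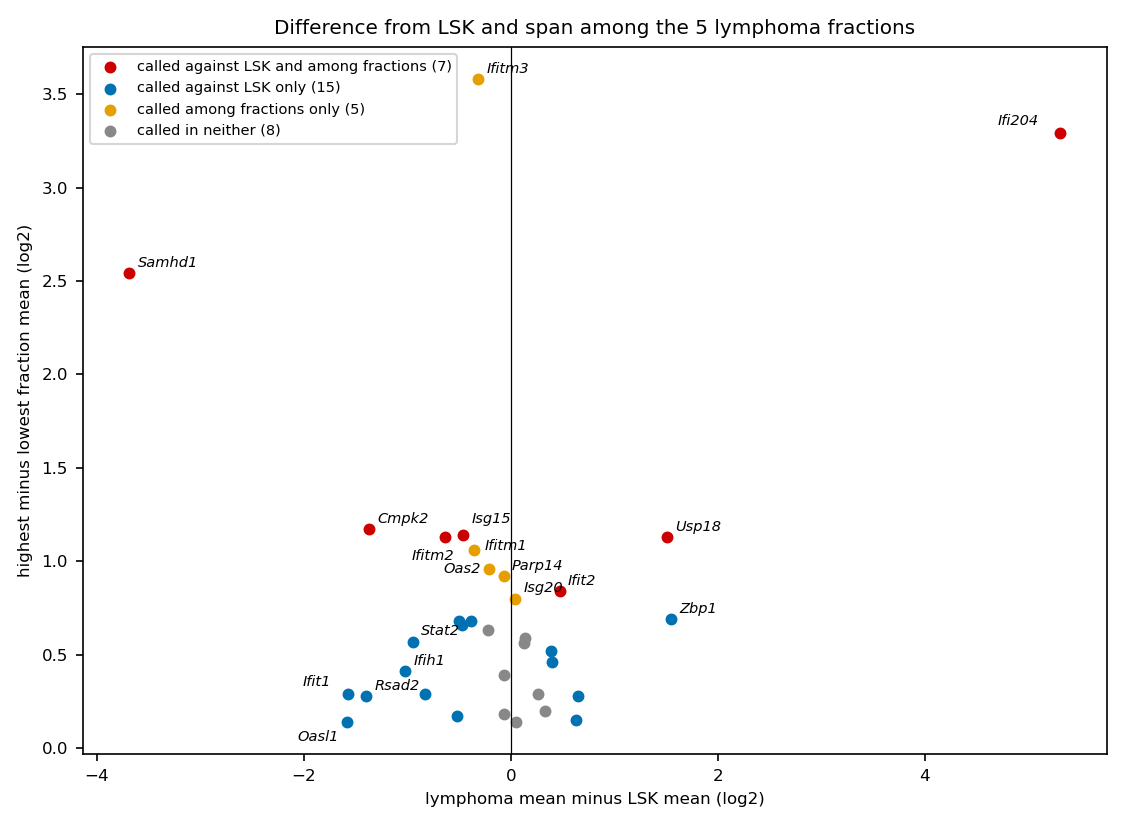
Difference of the lymphoma mean from the LSK mean (log2, horizontal) against the span between the highest and lowest fraction mean (log2, vertical) for each of the 35 genes, coloured by which test called it. Ifi204 and Samhd1 are far out on both axes, whereas Ifitm3 has the widest span, 3.58, and a small mean difference, -0.32.

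Among the transcription factors, the partners of the interferon complex were lower in the lymphoma and Irf1 was higher. Irf9, the DNA-binding subunit of ISGF3, read 8.67, 8.61 and 8.38 in LSK and 7.38 to 8.03 on the lymphoma arrays, with a median of 7.77. No lymphoma array reached the lowest LSK array, and the difference was -0.83 (SE 0.11, adjusted p 0.000397). Stat2, which joins IRF9 in that complex, read 8.91, 8.78 and 8.36 in LSK and had a lymphoma median of 7.61 (range 7.23 to 8.22), a difference of -0.95 (SE 0.15, adjusted p 0.000837). Again the groups did not overlap, and the largest deficit was in DN4, at -1.30 (SE 0.16, adjusted p 7.42e-05). Irf1, a factor induced by interferon gamma that also activates antigen presentation genes, read 6.84, 6.88 and 6.54 in LSK and 7.05 to 7.65 in the lymphoma, which is 1.54-fold higher (log2 difference 0.63, SE 0.11, adjusted p 0.00241). Irf7, the factor that amplifies interferon alpha production, differed by 0.05 (SE 0.16, adjusted p 0.853). None of these 4 genes passed the F test among fractions, with spans of 0.14 for Irf7 to 0.57 for Stat2.

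The sensors held both the largest gain and clear losses. Ifi204, a member of the p200 family of DNA-binding proteins, was at background on all 3 LSK arrays, at 3.62, 4.30 and 2.94. It read 9.95, 9.83 and 10.51 in CLP, 7.43, 6.85 and 6.15 in DN1, 7.90, 8.13 and 8.23 in DN2, 9.87, 10.18 and 9.67 in DN3, and 9.75, 9.76 and 9.73 in DN4. All 15 lymphoma arrays lay above LSK, and DN1 was the lowest fraction, with no array of it reaching DN2. Since LSK gives only a bound, the lymphoma mean was at least 11.2-fold higher, from at least 2.57-fold in DN1 to at least 25.1-fold in CLP (adjusted p 5.07e-07 for the mean of all fractions). Ifi204 belongs to a cluster of near-identical genes, so its signal may be shared with relatives. A probe set annotated to both Ifi211 and Ifi204 had means of 6.08 in LSK and 8.82 in DN1, and 9.69 to 11.81 in the other fractions. In the lymphoma, the step from DN1 to DN2 was 1.28 (SE 0.25, adjusted p 0.0118) and from DN2 to DN3 1.82 (SE 0.25, adjusted p 0.000207). The first of these steps missed the threshold without DN2 replicate 2 (adjusted p 0.0691), DN2 replicate 3 (0.0748) or DN1 replicate 3 (0.0539).

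Zbp1, a sensor of Z-form nucleic acid that can start cell death, also rose. It read 6.43, 6.20 and 6.24 in LSK and 8.10, 8.33 and 8.35 in CLP. DN1 read 8.38, 8.16 and 7.67, DN2 read 7.39, 7.70 and 7.80, DN3 read 7.31, 7.90 and 7.50, and DN4 read 7.91, 7.65 and 7.48. Every lymphoma array was above every LSK array, and the mean was 2.94-fold higher (log2 difference 1.55, SE 0.11, adjusted p 3.49e-06). The span of 0.69 among fractions did not pass the F test (adjusted p 0.0829). Ifih1, which encodes the RNA sensor MDA5, moved the other way, from 8.13, 7.96 and 8.33 in LSK to 6.52 to 7.65 in the lymphoma. It was 2.02-fold lower, with no overlap (log2 difference -1.02, SE 0.12, adjusted p 0.000198). Dhx58, a relative of MDA5 also known as LGP2, was lower by a smaller amount, at -0.39 (SE 0.10, adjusted p 0.0123), and in CLP it differed by only 0.05. Eif2ak2, the RNA-activated kinase PKR, was higher by 0.40 (SE 0.12, adjusted p 0.0362), and Adar, which edits adenosines in double-stranded RNA, was lower by a difference of -0.52 (SE 0.13, adjusted p 0.0131). The Eif2ak2 call was lost without either LSK replicate 1 or 2, or without any one of DN1, DN2 and DN4 replicate 3.

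In the OAS family, whose enzymes make the activator of RNase L, Oasl1 and Oasl2 were lower than LSK as a lymphoma mean, and Oas2 was lower in DN3 and DN4. Oasl1, an OAS-like protein without that enzyme activity, read 7.04, 6.61 and 6.76 in LSK. Its values were 5.26, 4.89 and 5.70 in CLP, 5.28, 5.18 and 5.11 in DN1, 5.08, 5.15 and 5.19 in DN2, 5.30, 5.07 and 5.38 in DN3, and 5.20, 5.33 and 5.14 in DN4. No lymphoma array came near LSK, and all 12 arrays of DN1 to DN4 were at background, which makes LSK at least 2.31-fold to at least 2.47-fold higher. The mean difference was -1.58 (SE 0.13, adjusted p 9.9e-06). Oasl2 was lower by a difference of -0.47 (SE 0.14, adjusted p 0.0343), a call lost without LSK replicate 1, LSK replicate 3 or DN4 replicate 2. Oas2 did not differ from LSK as a mean, at -0.21 (SE 0.11, adjusted p 0.191), but it was lower in DN3 (-0.67, adjusted p 0.00287) and in DN4 (-0.67, adjusted p 0.00707) than in LSK. It was also lower in DN4 than in DN1 by a difference of -0.96 (SE 0.20, adjusted p 0.00535), with means of 5.67 and 6.63. In DN3 and in DN4, 2 of 3 arrays were above background for Oas2, so the size of these differences is limited by background. Oas3 was at -0.07 (SE 0.11, adjusted p 0.666).

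Of the 8 antiviral effectors, 4 were lower than LSK, 1 was higher and the others did not pass, and Samhd1 had the largest difference. Samhd1 encodes an enzyme that degrades the nucleotides needed for DNA synthesis and so limits reverse transcription. It read 9.04, 8.80 and 8.95 in LSK, 4.75, 4.56 and 4.92 in CLP, 6.82, 7.15 and 7.12 in DN1, 5.11, 5.32 and 5.18 in DN2, 4.44, 4.34 and 4.69 in DN3, and 4.73, 4.65 and 4.79 in DN4. DN1 held an intermediate level, 3.74-fold under LSK (log2 difference -1.90, SE 0.15, adjusted p 4.12e-06). The 4 other fractions were at background on every array, so LSK was at least 9.85-fold higher than CLP and at least 10.8-fold higher than DN2. DN1 in turn was at least 2.89-fold higher than DN2 (adjusted p 1.89e-06) and at least 2.76-fold higher than DN4 (adjusted p 7.27e-09). The further step to DN3, -0.71 (adjusted p 0.00759), is between values that are both at background, so no fold is given.

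Ifit1, which binds viral RNA that lacks a host cap, read 6.60, 6.0 and 6.99 in LSK. In CLP it read 4.83, 4.44 and 6.07, in DN1 5.22, 4.27 and 5.27, in DN2 4.60, 4.90 and 4.97, in DN3 5.05, 5.01 and 5.17, and in DN4 4.67, 4.77 and 5.12. CLP replicate 3 alone overlapped with LSK, and the mean difference was -1.57 (SE 0.24, adjusted p 0.000903). The DN fractions were at background, which puts LSK at least 1.92-fold to at least 2.05-fold higher. Its neighbours of the same family did not follow it. Ifit2 was higher by 0.47 (SE 0.10, adjusted p 0.00555), and Ifit3, at 0.26 (SE 0.10, adjusted p 0.0896), did not pass. Ifit2 also differed among fractions, with means of 5.81 in DN1 and 6.64 in DN3, though this call was lost without DN1 replicate 1 (adjusted p 0.0795) or DN1 replicate 2 (adjusted p 0.0638).

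Rsad2, the antiviral enzyme viperin, and Cmpk2, a mitochondrial nucleotide kinase encoded next to it on chromosome 12, were both lower. Rsad2 read 7.57, 7.45 and 7.86 in LSK and 5.94 to 6.53 in the lymphoma, which is 2.64-fold lower (log2 difference -1.40, SE 0.12, adjusted p 1.92e-05). Its fractions lay close together, with a span of 0.28. Cmpk2 read 8.72, 8.27 and 8.62 in LSK, 6.96, 7.65 and 8.02 in CLP, 7.77, 7.79 and 7.75 in DN1, 7.16, 7.36 and 7.32 in DN2, 6.94, 6.45 and 6.53 in DN3, and 6.43, 6.70 and 6.67 in DN4. All lymphoma arrays were under LSK, and DN3 and DN4 did not overlap with DN1 or DN2. The mean was 2.59-fold lower than LSK (adjusted p 3.53e-05), and DN4 was 2.25-fold lower than DN1 (log2 difference -1.17, SE 0.21, adjusted p 0.00128). Isg20, a nuclease that degrades single-stranded RNA, differed from LSK by 0.04 (SE 0.11, adjusted p 0.802), and Bst2, the virus-tethering protein tetherin, by 0.13 (SE 0.11, adjusted p 0.428).

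The 3 IFITM genes, which encode membrane proteins that stop viruses from fusing and are neighbours on chromosome 7, all differed among fractions. Ifitm3 read 9.42, 9.30 and 9.56 in LSK and 9.47, 9.78 and 9.99 in CLP. It read 10.89, 10.55 and 10.52 in DN1, 10.07, 9.89 and 10.17 in DN2, 8.06, 7.87 and 8.18 in DN3, and 6.99, 6.87 and 7.35 in DN4. DN1 and DN2 lay above LSK, DN3 and DN4 below it, and no 2 of the DN fractions overlapped. Against LSK, Ifitm3 was 2.34-fold higher in DN1 (log2 difference 1.23, SE 0.15, adjusted p 0.000152) and 5.12-fold lower in DN4 (log2 difference -2.36, SE 0.15, adjusted p 3.59e-07). DN4 was 12-fold lower than DN1 (log2 difference -3.58, SE 0.17, adjusted p 2.7e-10). Of that, DN2 to DN3 took -2.0 (SE 0.17, adjusted p 8.66e-07), while DN1 to DN2, at -0.61 (SE 0.17, adjusted p 0.106), and DN3 to DN4, at -0.97 (SE 0.17, adjusted p 0.28), did not pass over all genes. The mean of the lymphoma against LSK, -0.32 (SE 0.11, adjusted p 0.0607), blends these opposite differences.

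Ifitm2 and Ifitm1 were highest in CLP instead. Ifitm2 read 10.50, 11.17 and 11.86 in CLP and between 9.86 and 10.93 in DN1 to DN4, with 10.99 to 11.20 in LSK. It was lower than LSK as a lymphoma mean, by a difference of -0.64 (SE 0.13, adjusted p 0.00493). Its span of 1.13 among fractions passed the F test (adjusted p 0.0229) but not without CLP replicate 2, DN4 replicate 1 or DN4 replicate 2 (adjusted p 0.0553 to 0.0603). Ifitm1 read 6.61, 6.43 and 6.35 in CLP, and its DN means ran from 5.40 to 5.50, where 0 or 1 of 3 arrays in each DN fraction was above background. With the CLP arrays left out, an alternative chosen after the data were seen, the span of Ifitm1 was 0.10 (adjusted p 0.975) and that of Isg20 0.36 (adjusted p 0.433). For Ifitm1 this compares values at or near background, so it does not show equal levels.

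In the ISG15 system, the modifier and the enzyme that removes it went opposite ways. Isg15, a ubiquitin-like protein that is attached to other proteins, read 7.14, 7.02 and 7.16 in LSK. The fractions read 6.86, 7.24 and 7.60 in CLP, 6.28, 6.07 and 5.94 in DN1, 6.34, 6.26 and 6.56 in DN2, 7.01, 6.85 and 6.94 in DN3, and 6.46, 6.46 and 6.81 in DN4. CLP overlapped with LSK while all 4 DN fractions lay under it, DN3 narrowly (-0.17, not called), with DN1 lowest, 2.01-fold under LSK (log2 difference -1.01, SE 0.14, adjusted p 0.000402). The lymphoma mean differed by -0.46 (SE 0.10, adjusted p 0.00717), or by -0.32 (adjusted p 0.0636) with DN1 left out of it, an alternative also chosen after the data were seen. Usp18, which removes ISG15 and also blocks the interferon alpha receptor, read 6.72, 6.67 and 6.65 in LSK. It read 7.68, 8.06 and 9.01 in CLP, 8.86, 8.83 and 8.63 in DN1, 8.57, 8.51 and 8.68 in DN2, 7.51, 7.83 and 7.78 in DN3, and 7.62, 7.55 and 7.76 in DN4. All lymphoma arrays were above LSK, the mean being 2.85-fold higher (log2 difference 1.51, SE 0.11, adjusted p 5.13e-06), and DN1 and DN2 did not overlap with DN3 and DN4. Usp18 in DN4 was 2.19-fold lower than in DN1 (log2 difference -1.13, SE 0.23, adjusted p 0.00484), where Isg15, at 0.48 (SE 0.17, adjusted p 0.154), did not pass. Trim25, a ubiquitin ligase that activates the sensor RIG-I, was lower in the lymphoma by a difference of -0.50 (SE 0.15, adjusted p 0.0369), a call lost without LSK replicate 1 or 2, CLP replicate 2 or DN3 replicate 1.

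**Figure D4:**
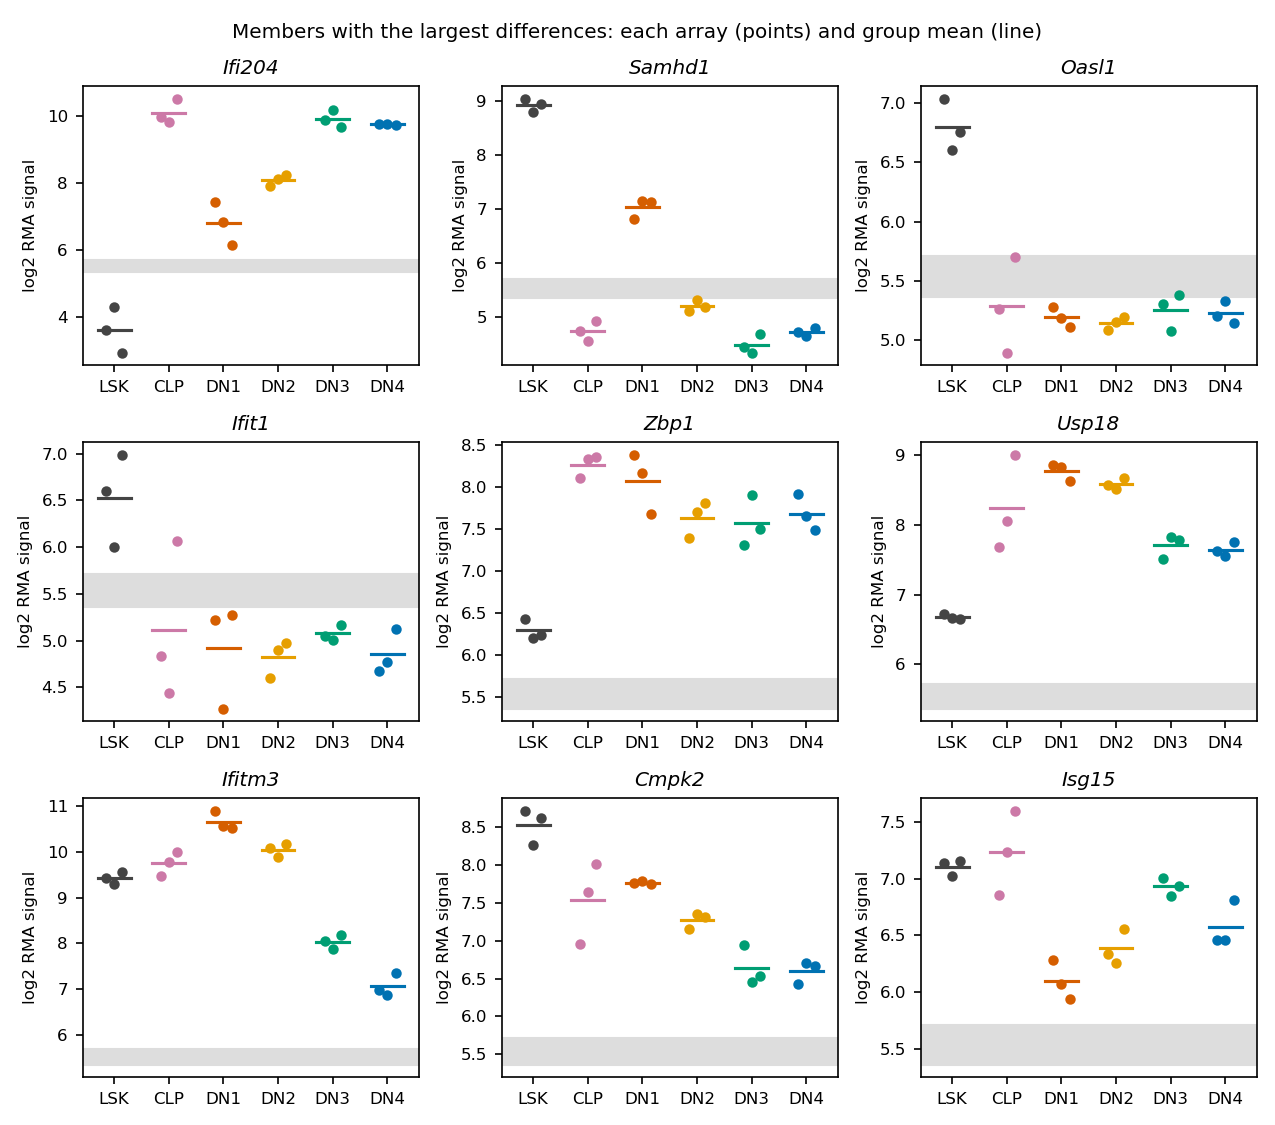
Log2 signal of 9 interferon response genes on every array (points, 3 per group, with the group mean as a line), and the background level between 5.36 and 5.71 (grey band). Samhd1 is at background in CLP, DN2, DN3 and DN4, Ifi204 is under it in LSK, and Ifitm3 is lower in DN3 and DN4 than in the other groups.

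Of the remaining genes, Lgals3bp, a secreted galectin-binding glycoprotein, was the one with complete separation. It read 9.45, 9.30 and 9.46 in LSK and 9.75 to 10.43 in the lymphoma, 1.57-fold higher (log2 difference 0.65, SE 0.10, adjusted p 0.000666). A second probe set of Lgals3bp differed by 0.44 between the means. Parp9, which acts with DTX3L in ADP-ribosylation, was higher by 0.39 (SE 0.12, adjusted p 0.0326), a call lost without LSK replicate 2 or DN3 replicate 1. The probe set shared by Dtx3l and Parp9 had means of 8.21 in LSK and 8.65 to 8.79 in the fractions. Parp14, another ADP-ribosyltransferase, was higher in DN1 than in LSK (0.49, SE 0.13, adjusted p 0.023) and lower in DN3 (-0.43, SE 0.12, adjusted p 0.0269). The DN1 call was lost without LSK replicate 2 (0.0868), LSK replicate 3 (0.0659) or DN1 replicate 2 (0.0801), and the DN3 call without LSK replicate 1, LSK replicate 3, DN3 replicate 1 or DN3 replicate 3 (0.0513 to 0.0993). In Parp14, DN4 was lower than DN1 by a difference of -0.76 (SE 0.15, adjusted p 0.00431). The rest did not pass as a lymphoma mean: Ifi35, which modulates innate signalling (-0.22), Xaf1, a promoter of apoptosis (0.33), Rtp4, a receptor transport protein (0.14), and Tap1, the peptide transporter of antigen presentation (-0.07), with SEs of 0.11 to 0.16. Rtp4 had the widest spread in one group, at 6.74, 8.89 and 8.0 in CLP.

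Along the DN series the named steps differed in how many of the 35 genes were called. The adjustment at each step depends on all genes, so these counts do not measure how far the listed genes moved. Between DN1 and DN2, 3 genes were called, against 1.35% of all genes, 0.708% rising and 0.645% falling: Ifi204 and Ifit2 (0.71, SE 0.16, adjusted p 0.0361) rose and Samhd1 fell. Without DN2 replicate 2, or without DN2 replicate 3, the count was 1. From DN2 to DN3, 4 genes were called, against 2.45% of all genes, 1.3% rising and 1.15% falling: Ifi204 rose, Ifitm3 and Oas2 (-0.85, SE 0.20, adjusted p 0.0284) fell, and Samhd1 was called between values at background. That count was 2 without DN2 replicate 2 and 6 without CLP replicate 1, which enters through the shared spread. The Oas2 call of this step was lost without DN2 replicate 2 or 3, or without any one DN3 array (adjusted p 0.0593 to 0.189). From DN3 to DN4 no listed gene was called by limma, against 0.00451% of all genes. At an unadjusted limma p under 0.05 there were 5 (Ifit2, Isg20, Bst2, Ifitm2 and Ifitm3), against 659 of all 22180 genes. The same unadjusted rule gave 7 listed genes between DN1 and DN2, against 1736 of all genes, and 8 between DN2 and DN3, against 1789. The lack of adjusted calls from DN3 to DN4 thus does not show that the list stayed still. Under each alternative run the count of listed genes called after adjustment from DN3 to DN4 was also 0. Between the ends of the series, DN4 and DN1, 7 genes were called, against 5.61% of all genes, 2.82% higher in DN4 and 2.79% lower. Ifi204 was higher in DN4, by 2.94 (SE 0.25, adjusted p 3.89e-07), and Ifitm3, Samhd1, Cmpk2, Usp18, Oas2 and Parp14 were lower.

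CLP set against the mean of the 4 DN fractions gave 7 called genes, against 4.44% of all genes, 1.51% higher in CLP and 2.93% lower. Higher in CLP were Ifi204 (1.46), Ifitm1 (1.02), Ifitm2 (0.88), Ifitm3 (0.80), Isg15 (0.73) and Isg20 (0.66), with SEs of 0.11 to 0.20 and adjusted p of 9.61e-05 to 0.0185. Samhd1 was also called, at -0.62 (adjusted p 0.00549), but CLP, DN2, DN3 and DN4 were all at background and DN1 alone was above it, so this value gives no order between CLP and the other 3. Ifitm3 had a mean of 9.75 in CLP, under DN1 (10.65) and DN2 (10.04), so its call holds only against the mean of unlike DN levels. The Ifitm2 call was lost without CLP replicate 2 (adjusted p 0.0597) or CLP replicate 3 (0.54, adjusted p 0.0857). The CLP arrays differed among themselves: replicate 1 read 6.96 for Cmpk2, 6.86 for Isg15 and 10.50 for Ifitm2, under both other replicates for each. Without CLP replicate 1 the count was 12.

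Markers of other cell types moved with some of these differences. Jchain, the joining chain of secreted antibody, was at 8.60 in DN1 and 4.09 to 4.45 in the other fractions. The plasma cell list summed to 37.7 to 39.4 in DN1 against 31.4 to 33.7 in the others, with 5 of 5 markers above background in DN1 and 4 of 5 in DN2. Jchain, Xbp1 and Prdm1 of this list differed among the fractions, while Sdc1 (F test, adjusted p 0.867) and Mzb1 (adjusted p 0.418) did not. The macrophage list summed to 54.6 to 56.2 in DN1, 54.1 to 55.1 in DN2, 52.6 to 53.5 in CLP and 51.3 to 53.2 in DN3 and DN4. Of its 10 genes only Mrc1 differed among the fractions, at 7.87 in DN1 and 7.47 in DN2 against 5.08 to 5.33. In DN1, 2 of the 10 were above background, Mrc1 and C1qa, while Csf1r, Adgre1, Lyz2, Cd14, C1qb, C1qc, Fcgr1 and Marco were not on all arrays. The dendritic list had 0 of 4 genes above background in each fraction. The granulocyte list summed to 31.1 to 38.4 in DN1, a wider range than in any other fraction, and had 0 of 7 genes above background on all DN1 arrays. Whether such cells were present in DN1 was not tested, nor was their part in its higher Ifitm3, Samhd1 and Usp18. In LSK, 3 of 7 granulocyte, 4 of 10 macrophage, 4 of 5 plasma cell, 4 of 5 plasmacytoid dendritic and 3 of 4 dendritic genes were above background. The 3 granulocyte genes were Elane, Mpo and Ngp, while Ly6g, S100a8, S100a9 and Camp were not above it on all LSK arrays. The dendritic genes include Flt3, which early lymphoid progenitors also carry, so these counts do not show mature cells in LSK. The LSK arrays also differed from one another, with Jchain at 9.06, 7.87 and 6.52 and Ngp, a granule protein of neutrophil precursors, at 8.14, 9.27 and 5.53. The part of any such cells in the differences from LSK was not tested.

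The rest of the pathway was read from lists by role. Of 19 interferon genes with a probe set, 0 differed between the lymphoma and LSK by limma, against 29% of all genes. Above background on all arrays of the group were 7 of the 19 in LSK, CLP, DN2, DN3 and DN4, and 6 in DN1. Ifnb1 and Ifng, for interferon beta and gamma, were at background on all 18 arrays. Of these 19, 2 (10.5%) differed among fractions, against 7.88% of all genes: Ifnl3 (adjusted p 0.00732) and Ifnab (adjusted p 0.033), the latter above background on 1 CLP array alone. At an unadjusted p under 0.05, 2 of the 19 would pass against LSK (Ifna9, Ifnab), where 8707 of all 22180 genes do.

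Of 9 receptor and kinase genes 6 (66.7%) differed from LSK, 1 higher and 5 lower, against 29% of all genes and 44.2% of the brighter genes. Ifnar1 and Ifnar2, the chains of the interferon alpha and beta receptor, were lower by differences of -0.72 (SE 0.13, adjusted p 0.00253) and -1.13 (SE 0.11, adjusted p 3.4e-05). Ifngr2, a chain of the interferon gamma receptor, was lower by a difference of -0.68 (SE 0.10, adjusted p 0.000767). Il10rb, shared by the receptors of interferon lambda and interleukin-10, had means of 9.01 in LSK, 8.06 in DN1, 7.19 in DN2, 5.73 in CLP, and 6.10 and 6.11 in DN3 and DN4. It was lower than LSK in the lymphoma mean (-2.37, SE 0.11, adjusted p 3.16e-07), and lower in DN4 than in DN1 (-1.95, SE 0.20, adjusted p 3.33e-06). Il10rb was not above background on all CLP arrays, which limits the size of the first of these differences. With Ifngr1, Ifnar2 and Jak2, 4 of the 9 genes (44.4%) differed among the fractions, against 7.88% of all genes and 14.3% of the brighter genes.

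Of 13 genes that sense nucleic acid or induce interferon, 7 (53.8%) differed from LSK, with Sting1 higher and 6 lower, against the same 29% and 44.2%. Aim2, an inflammasome sensor of DNA, had a mean of 8.11 in LSK and 4.54 to 5.26 in the fractions (adjusted p 5.67e-08), where 1 DN1 array alone was above background, so LSK was at least 5.58-fold higher than CLP and at least 5.84-fold higher than DN4. Tlr7, the endosomal receptor for single-stranded RNA, was at background in every fraction, with LSK at least 1.63-fold higher (adjusted p 1.5e-05). Ddx58, the RNA sensor RIG-I, differed by -0.77 (SE 0.12, adjusted p 0.00118), and Cgas, the DNA sensor upstream of STING, was also lower (adjusted p 0.00148): CLP, DN1 and DN4 were at background, with LSK at least 1.2-fold higher than CLP and at least 1.25-fold higher than DN1 and DN4. Sting1, which relays that signal, had means of 9.08 in LSK and 10.92 in DN1, with DN4 lower than DN1 by a difference of -1.31 (SE 0.18, adjusted p 0.000121). Sting1, Myd88, an adaptor of Toll-like receptors, and Tlr7 were the 3 of the 13 that differed among fractions, against 7.88% of all genes and 14.3% of the brighter genes, and Tlr7 did so between values at background.

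Of 7 negative regulators, 3 (42.9%) differed from LSK, a share near the 44.2% of the brighter genes. Socs3 (0.40), an inhibitor of JAK signalling, and Trim24 (0.31), a co-repressor, were higher, and Irf2, which competes with IRF1 for its sites, was lower (-1.08, SE 0.14, adjusted p 0.000227). Socs1, the inhibitor of JAK kinases that interferon induces, was the 1 of the 7 that differed among fractions. That is 14.3%, against 7.88% of all genes and 14.3% of the brighter genes. Socs1 went from a mean of 8.74 in DN1 to 7.20 in DN4 (-1.53, SE 0.14, adjusted p 8.04e-07).

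Of 38 further interferon-stimulated genes, 22 differed from LSK, 12 higher and 10 lower, with a median of 0.17. That is 57.9%, against 29% of all genes and 44.2% of the brighter genes. The smallest p-values were those of Oas1g, an OAS gene that was at background in every fraction (LSK at least 2.29-fold higher, adjusted p 4.67e-06), Slfn5, a Schlafen family gene (1.89, SE 0.17, adjusted p 2.19e-05), Ube2l6, the enzyme that conjugates ISG15 (LSK at least 1.5-fold higher, adjusted p 3.14e-05), and Gbp5, a guanylate-binding protein (-1.17, SE 0.11, adjusted p 4.18e-05). Among fractions 4 of the 38 (10.5%) differed, against 7.88% of all genes and 14.3% of the brighter genes: Nlrc5, an activator of MHC class I genes (DN4 against DN1 -1.67, SE 0.20, adjusted p 1.97e-05), Gbp3, another guanylate-binding protein (-1.10, SE 0.19, adjusted p 0.00104), Sp100, a nuclear body protein (-0.58, SE 0.12, adjusted p 0.0046), and Lgals9, a galectin (0.59, SE 0.16, adjusted p 0.0286). Slfn5 was not above background on all LSK arrays, nor Gbp5 on all arrays of CLP, DN3 and DN4. The same held for Gbp3 in DN3 and DN4. Background thus limits the size of the differences given for these genes.

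**Figure D5:**
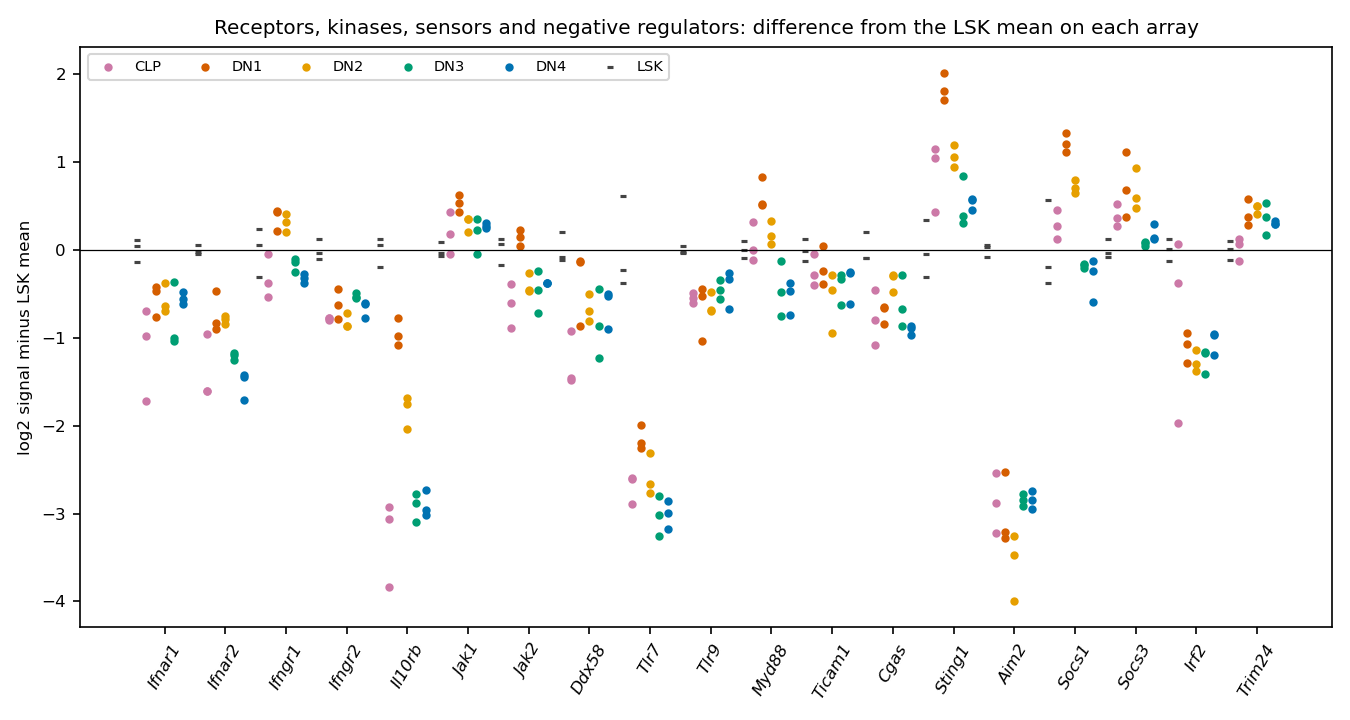
Difference of each array from the LSK mean (log2, vertical axis) for interferon receptors, kinases, sensors and negative regulators that differed from LSK or among fractions, coloured by fraction, with the LSK arrays as short bars. Il10rb, Sting1 and Socs1 differ among the fractions with DN1 highest, while Aim2 and Tlr7 lie far under LSK in each.

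The promoter matches were also counted by direction, over few genes and with no test. An ISRE-type match was found in 1 of the 4 genes that were higher than LSK and had a window, in 6 of the 13 that were lower, and in 4 of the 10 that were called neither way. For the GAS-type motif the counts were 3 of 4, 2 of 13 and 4 of 10. Of the 8 genes with a window that differed among fractions, 3 held an ISRE-type and 4 a GAS-type match. The windows with several ISRE-type matches belonged to Isg15 and Ifit1, which were lower than LSK, and to Ifitm3, Ifit3 and Bst2, which did not differ from it as a mean.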

How the data were processed

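The deposited table holds log2 signals of 41345 probe sets on 18 Affymetrix arrays, made by the authors with oligo and RMA per the submitters' processing notes (background correction, normalization between arrays, summary per probe set). Versions and genome build are not given in the sources used here. No column of sample values was left unused (0). RNA was amplified with a pico-input kit, per the labels' protocols. Probe sets with 1 symbol in the platform annotation (23521; 1814 had several and 16010 none) were reduced to the brightest per gene by the mean over all arrays, giving 22180 genes. The number of arrays, 3 per group, limits the precision.

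Groups follow the sample titles. The lymphoma mean averages the 5 fractions of each replicate number (3 values; the labels do not tie a number to an animal) and was tested against 3 LSK arrays. Each fraction was tested against LSK in a fit of both groups, and fractions against each other in a fit of 15 arrays. Tests were two-sided, with limma 3.58.1 (lmFit and eBayes) in R 4.3.3 and Benjamini-Hochberg adjustment over all genes, at 0.05. The script was tested on simulated data. A gene at background in a group gives only a bound: "at least" folds hold the lower group at the higher of its own signal and the 95th percentile of the olfactory receptor genes.

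All listed genes are named. Values on every array are given for the 6 with the largest differences from LSK and the 6 with the widest spans. From the other lists up to 4 called genes with the smallest p are named. A few further genes and arrays were added after their values were seen. The listed genes and the other lists were chosen with earlier results of these data known. Alternatives were the replicate block, repeated quantile normalization, the mean of probe sets, a filter on low values, a trended and robust prior, 1 model over all arrays, and each array left out.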

Additional observations from a re-analysis of the deposited data

Results flagged for a closer look

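Among the listed genes, 12 differed among the 5 lymphoma fractions by limma's F test with Benjamini-Hochberg adjustment, and each span is the log2 difference between the highest and lowest fraction mean. The widest were those of Ifitm3, 3.58 (adjusted p 6.11e-10), Ifi204, 3.29 (adjusted p 1.4e-07), and Samhd1, 2.54 (adjusted p 6.38e-09), the last from DN1 to fractions at background. Cmpk2 had a span of 1.17 (adjusted p 0.00177), Isg15 of 1.14 (adjusted p 0.00152), Usp18 of 1.13 (adjusted p 0.00765), Ifitm2 of 1.13 (adjusted p 0.0229) and Ifitm1 of 1.06 (adjusted p 0.000161). The narrower ones were those of Oas2, 0.96 (adjusted p 0.00557), Parp14, 0.92 (adjusted p 0.00338), Ifit2, 0.84 (adjusted p 0.0163), and Isg20, 0.80 (adjusted p 0.0166). The Isg20 call was lost without CLP replicate 1 (adjusted p 0.0565) or CLP replicate 2 (adjusted p 0.0753).

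The probe set annotated to both Ifi211 and Ifi204 lies outside the genes tested and had a lymphoma mean 4.49 above the LSK mean on the log2 scale, with no test.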

How the results depend on the processing

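Of 159 called values of the listed genes over the comparisons, 111 kept their call under each alternative run, 48 lost it under at least 1, and 0 reversed. With each array left out in turn, the count of listed genes called against LSK ran from 19 to 24 for the lymphoma mean, 7 to 14 for CLP, 16 to 21 for DN1, 19 to 23 for DN2, 16 to 21 for DN3 and 20 to 25 for DN4. It ran from 11 to 14 for the F test, 1 to 3 for DN2 against DN1, 2 to 6 for DN3 against DN2, 7 to 9 for DN4 against DN1 and 7 to 12 for CLP against the DN mean. With the replicate number as a block, the lymphoma mean gave 23 listed genes, CLP 12, DN4 25 and the F test 12. The labels do not say whether equal numbers are 1 lymphoma, and not every pair passed 0.1: residuals of same-numbered fractions correlated between -0.193 and 0.346 (median 0.121, 21 of 30 pairs above 0.1), those of other numbers with a median of -0.073 (6 of 60 above). The residuals are deviations from the mean of each group's 3 arrays, so positive values for equal numbers go with negative ones for other numbers. What same-numbered arrays share was not tested, and the fits without the block ignore any such link. Leaving a fraction out of the lymphoma mean and the CLP arrays out of the F test were chosen after the data were seen. Calls near the threshold (Eif2ak2, Oasl2, Trim25, Parp9, Ifit2) rest on 3 arrays a group, and signal near background limits what can be said of genes under it.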
